A study of Homo sapiens with 6 samples.

Results

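A set of 10 miRNAs was chosen by name because their annotated precursors or sequences coincide with other small non-coding RNAs. They are the arms of miR-664a and miR-664b, miR-1248, miR-1291 and a further miRNA, all assigned to small nucleolar RNAs (snoRNAs), miR-1246, assigned to the U2 small nuclear RNA (snRNA), and miR-1260a and miR-1260b, which resemble transfer RNA (tRNA). The table that was analysed holds 9 of the 10 among 1582 miRNAs, and the remaining one was not analysed here. The samples were 3 libraries of non-transfected MDA-MB-231 cells (control) and 3 libraries of MDA-MB-231 cells carrying lentiviral RARαS77A, a retinoic acid receptor α that cannot be phosphorylated at serine 77. These cells are an established triple-negative breast cancer line of human origin. No empty-vector library was among the samples, so the mutant receptor and its delivery cannot be told apart. Nothing in the sources used here tells whether replicates were separate cultures, so p-values measure the spread between these libraries, which may be technical.

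Most miRNAs are cut from a hairpin transcript, first in the nucleus by Drosha and then in the cytoplasm by Dicer, and one strand is loaded into an Argonaute protein, where bases 2 to 8 (the seed) pair with target mRNAs. H/ACA snoRNAs guide the conversion of uridine to pseudouridine in ribosomal and spliceosomal RNAs, and most are released from introns of host genes. U2 snRNA pairs with the branch point of introns during splicing, and tRNAs carry the trinucleotide CCA at their 3′ end, to which the amino acid is attached. Short RNAs from all of these can enter small RNA libraries and be counted under a miRNA name where the sequence is the same. The deposited counts give no read lengths or read ends. A miRNA made by Dicer and a fragment of the host RNA with the same sequence therefore cannot be told apart in these values.

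The mature sequences are shown with the seed in capitals, because the seed sets which members could share targets. They were taken from RefSeq (GRCh38.p14), which held all 9 members of the table.
miR-664a-3p: uAUUCAUUuauccccagccuaca
miR-664a-5p: aCUGGCUAgggaaaaugauuggau
miR-664b-3p: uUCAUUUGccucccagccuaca
miR-664b-5p: uGGGCUAAgggagaugauugggua
miR-1248: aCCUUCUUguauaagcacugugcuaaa
miR-1291: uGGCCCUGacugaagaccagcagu
miR-1246: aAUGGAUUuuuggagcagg
miR-1260a: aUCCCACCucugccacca
miR-1260b: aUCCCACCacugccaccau

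Among the members, miR-1260a and miR-1260b had the same seed and differed by the substitution U9A, counted from the 5′ end of miR-1260a, and by an additional 3′ base in miR-1260b. The 3p arms of miR-664a and miR-664b were identical at 19 of 21 aligned bases, but miR-664b-3p began 2 bases later, and the seeds differed. The 5p arms were identical at 17 of 23 aligned bases and also had different seeds. Of the 1342 miRNAs of the table with a RefSeq sequence, miR-4794 had the seed of miR-664a-5p, miR-579-3p that of miR-664b-3p and miR-6775-3p that of miR-1291. No other miRNA of the table with a sequence had the seed of miR-664a-3p, miR-664b-5p, miR-1248 or miR-1246.

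The annotation placed 6 of the 9 members inside a snoRNA. Precursor positions are those of RefSeq (GRCh38.p14), and the snoRNAs and host genes are those of GENCODE version 29 (GRCh38). The precursor MIR664A occupies chr1:220200538-220200619 on the minus strand, in an intron of RAB3GAP2, and 74 of its 82 bases belong to the snoRNA SNORA36B. MIR664B occupies chrX:154768596-154768656 on the plus strand, with all 61 bases in SNORA36A. It overlaps an exon of at least one transcript of DKC1, which encodes dyskerin, the pseudouridine synthase of H/ACA particles. MIR1248 is found at chr3:186786672-186786777 (plus strand) in EIF4A2, which encodes a helicase of translation initiation, overlapping an exon of at least one transcript, and shares 103 of 106 bases with SNORA81. MIR1291 is found at chr12:48654444-48654530 (minus strand), in an intron of KANSL2, and shares 75 of 87 bases with SNORA2C.

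The mature ends lay at or near the ends of the host RNAs in 4 of these 6 members. The stretches below are from GENCODE transcripts, written 5′ to 3′ with the bases of the miRNA in capitals, and are shown because they place each miRNA within its host. SNORA36B, SNORA36A, SNORA81 and SNORA2C are given by their last or first 30 bases, and RNU2-1, a gene of U2 snRNA, by positions 89 to 118.
SNORA36B with miR-664a-3p: attcTATTCATTTATCCCCAGCCTACAaaa
SNORA36A with miR-664b-3p: ttctaTTCATTTGCCTCCCAGCCTACAaaa
SNORA81 with miR-1248: ACCTTCTTGTATAAGCACTGTGCTAAAatt
SNORA2C with miR-1291: gTGGCCCTGACTGAAGACCAGCAGTtgtac
RNU2-1 with miR-1246: tattaAATGGATTTTTGGAGCAGGgagatg

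Both 3p arms of miR-664 ended with ACA, followed by 3 bases to the end of the snoRNA. An ACA at this position is the defining box of H/ACA snoRNAs, and 75.5% of 147 annotated SNORA transcripts had it. miR-1248 started at the first base of SNORA81 and miR-1291 at the second base of SNORA2C. The 5p arms of miR-664a and miR-664b lay inside their hosts, 40 bases before the end. miR-1246 was not annotated inside another small RNA. Its precursor is annotated at chr2:176600980-176601052 (minus strand), and its 19 bases are found unchanged at positions 94 to 112 of the 191-base RNU2-1. The same bases occurred in 19 transcripts of snoRNA, snRNA, ribosomal, mitochondrial or miscellaneous RNA type, whereas those of miR-664a-3p occurred in SNORA36B alone among them.

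The precursors of the tRNA-like pair did not overlap any of 465 tRNA genes of RefSeq. MIR1260A is annotated at chr14:77266218-77266290 (plus strand), opposite to an exon of NGB, and MIR1260B at chr11:96341438-96341526 (plus strand), opposite to an exon of MAML2. miR-1260a ends in CCA, as do 19 of the 1342 miRNAs of the table with a RefSeq sequence (1.4%). No exact match to either was found among the non-coding transcripts searched. Sequences of nuclear tRNAs were not used here, so their likeness to tRNA was not measured.

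The libraries held between 9019266 and 11338580 counts. Counts were scaled by TMM (a factor for the composition of each library), whose factors lay between 1.15 and 1.30 in control and between 0.811 and 0.830 in RARαS77A libraries. On the leading principal component of all tested miRNAs, control replicate 3 lay 46.7% of the way from control replicates 1 and 2 towards RARαS77A. It did not stand apart in the squared difference of raw counts over counting variance, as a mean per miRNA, which was 322.9 between control replicates 1 and 2. Abundant miRNAs weigh most in this mean, so it cannot show whether rarer miRNAs set a library apart. The values were 196.1 and 276.9 between control replicate 3 and control replicates 1 and 2. Against RARαS77A libraries they were between 922.2 and 1493 for control replicate 3 and between 860.5 and 1327 for the other controls. miR-302b-3p, a miRNA of pluripotent stem cells, had 0 and 1 counts in control replicates 1 and 2 and 1833 in control replicate 3, against 1267 to 1303 in RARαS77A libraries. In all, 13 of 14 listed miRNAs of other cell types (stem, muscle, liver and blood) were in the table. Their sum lay between 47.9 and 419 CPM (counts after scaling the library total to 1000000) in control and between 277 and 310 in RARαS77A libraries, and 5, 6 and 1 of them were at 0 in the 3 controls. All libraries are bulk RNA of a cell line, where fewer cells of a type and less RNA per cell cannot be told apart. Where the counts of these miRNAs of other cell types came from was not tested. The muscle miRNAs of the list were highest in control replicate 1 instead, with 898 counts of miR-1-3p against 28 to 49 in the other libraries. Results are therefore also given without control replicate 3 where it changed them, and each library was also left out in turn. The miRNAs of mesenchymal-like breast cells (miR-21-5p, miR-100-5p, miR-125b-5p, miR-221-3p and miR-222-3p) were all present and made up between 613000 and 709000 CPM, whereas 6 of 6 epithelial ones summed to between 89.7 and 128 CPM. The larger sum was mostly miR-21-5p, with a mean of 478402 CPM in control and 505472 CPM in RARαS77A libraries. On this scaling to library totals, the mean of miR-100-5p was also higher in RARαS77A libraries, and those of miR-125b-5p, miR-221-3p and miR-222-3p were lower. After TMM scaling the mean of miR-222-3p was higher instead, with 8111 CPM in control and 10644 CPM in RARαS77A libraries.

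The members were rare. Together the 9 made up between 46.8 and 58.6 CPM of the library total in control and between 33.7 and 38.9 in RARαS77A libraries, and miR-664a-3p supplied between 53.2% and 68.8% of this. By count, miR-664a-3p ranked between 187 and 199 and miR-1260b between 210 and 294 among the 1582 miRNAs, and miR-1246 between 319 and 412. The mean count exceeded 100 for 2 members, miR-664a-3p and miR-1260b. In the test over all miRNAs, 5 members passed the filter on low counts, namely hsa-miR-664a-3p, hsa-miR-664a-5p, hsa-miR-1291, hsa-miR-1246 and hsa-miR-1260b. The other 4 did not pass. miR-1291 passed the filter through the RARαS77A libraries, since 3 of 3 of these but 1 of 3 controls reached the required 0.986 CPM of the library total, whereas the other 4 tested members reached it in all 6 libraries. Counts and medians over the tested members therefore include a member whose presence depends on the group where it was higher.

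No member passed the test between RARαS77A and control cells (edgeR's quasi-likelihood test, Benjamini-Hochberg adjusted p under 0.05 over 506 miRNAs). Of the 506, 225 passed, which is 44.5%, with 23.3% higher and 21.1% lower in RARαS77A cells. At an unadjusted p under 0.05, 1 of the 5 tested members remained, miR-1291, against 52.8% of all 506. DESeq2 called 0 members, and 0 at an unadjusted p under 0.05 (49.9% of all), with 21.3% of all tested miRNAs higher and 21.7% lower, and limma-voom called 1, also miR-1291, with 27.3% of all higher. The median log2 fold change was 0.18 over the 5 members and 0.06 over all 506. The groups did not overlap in 1 of the 5 members after TMM scaling, against 58.1% of all tested miRNAs.

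The snoRNA-derived members are described first. hsa-miR-664a-3p had 326, 353 and 255 counts in control and 225, 246 and 210 in RARαS77A libraries. Every RARαS77A library had fewer counts than every control. After TMM scaling the order was not kept, with 24.5 ± 1.48 CPM in control and 27.7 ± 2.15 in RARαS77A cells (SD, n = 3 each), and the groups overlapped. The log2 fold change was 0.18 (standard error 0.16, 95% interval -0.19 to 0.54, adjusted p = 0.377, edgeR). Scaled to total counts alone, the value was -0.39 (adjusted p = 0.0842, edgeR), and the groups did not overlap, as in 62.3% of all tested miRNAs. The median over all tested miRNAs moved from 0.06 to -0.51 between these scalings, and miR-664a-3p lay 0.12 above the median in both. The spread between replicates of miR-664a-3p was 6.06% of the mean in control and 7.75% in RARαS77A cells, where counting error alone gives 5.67% and 6.64%.

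miR-664a-5p, the other arm of the same hairpin, was far less abundant. The hairpin is shown with both arms in capitals, the 5p arm first.
MIR664A: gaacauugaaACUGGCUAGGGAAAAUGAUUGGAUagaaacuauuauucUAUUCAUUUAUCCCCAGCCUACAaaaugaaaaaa

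The counts of miR-664a-5p were 19, 15 and 10 in control and 13, 16 and 12 in RARαS77A libraries. The groups overlapped, and the log2 fold change was 0.53 (standard error 0.33, 95% interval -0.25 to 1.30, adjusted p = 0.230, edgeR), which was -0.04 under scaling to total counts. The share of 5p among the counts of both arms does not depend on the scaling between libraries. It was 5.51%, 4.08% and 3.77% in control and 5.46%, 6.11% and 5.41% in RARαS77A libraries. One control library lay between the RARαS77A libraries, and the log2 ratio of 5p to 3p differed by 0.38 (exact permutation test, two-sided, p = 0.2, adjusted p = 0.5 over 5 ratios, where 0.1 is the smallest p that 3 against 3 allow). With 1 in place of 0.5 added to each count, the difference was again 0.38 and the same test gave an unadjusted p = 0.1. The p-value of this ratio thus depends on the number added.

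The paralog on chromosome X gave few counts. miR-664b-3p had 13, 6 and 4 counts in control and 8, 9 and 10 in RARαS77A libraries, between 1.57 and 4.76 for every 100 counts of miR-664a-3p. miR-664b-5p had 2, 1 and 2 counts in control and 0, 5 and 0 in RARαS77A libraries. At a count of 0 the limit set by 3 counts was 0.309 and 0.300 CPM of the library total in these RARαS77A libraries, for counting error only. Both arms overlapped between the groups (exact permutation test on CPM after TMM scaling, two-sided, p = 0.2 for miR-664b-3p and p = 1.0 for miR-664b-5p, adjusted p = 0.4 and 1.0 over 4 members).

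miR-1291, at the 5′ end of SNORA2C, showed the largest fold change among the 5 tested members. hsa-miR-1291 had 8, 3 and 12 counts in control and 20, 11 and 13 in RARαS77A libraries. In CPM after TMM scaling these were 0.642, 0.204 and 1.10 in control and 2.54, 1.31 and 1.56 in RARαS77A libraries, without overlap. The log2 fold change was 1.52 (standard error 0.58, 95% interval 0.16 to 2.87, unadjusted p = 0.0326, adjusted p = 0.0676, edgeR), which did not pass. Its filtered tests are conditional on the RARαS77A libraries having reached the filter. The highest control library was replicate 3. Without it, the log2 fold change was 2.06 and passed (adjusted p = 0.0183, edgeR), with 23.8% of all tested miRNAs called higher. With any other library left out, miR-1291 did not pass. Leaving out RARαS77A replicate 1, the highest of its group, gave 1.119 (adjusted p = 0.246, edgeR). Leaving out control replicate 2, the lowest, gave 1.091 (adjusted p = 0.121, edgeR). DESeq2 gave 1.47, which did not pass (adjusted p = 0.111). miR-1291 did pass under upper quartile scaling (1.75, adjusted p = 0.0458, edgeR), where 27.9% were called higher. The same held without the filter on low counts (1.32, adjusted p = 0.0432, edgeR), where 7.4% of 1582 were called higher. With total counts as the only scaling it was 0.95 (adjusted p = 0.191, edgeR) and the groups overlapped. Per 100 counts of miR-664a-3p, miR-1291 gave 2.45, 0.850 and 4.71 counts in control and 8.89, 4.47 and 6.19 in RARαS77A libraries, with control replicate 3 above RARαS77A replicate 2 (exact permutation test, two-sided, p = 0.2, adjusted p = 0.5 over 5 ratios).

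miR-1248, at the first base of SNORA81, had 1, 0 and 6 counts in control and 2, 7 and 12 in RARαS77A libraries. The groups overlapped through control replicate 3, and the sums were 7 and 21 counts. It did not pass the filter. An exact permutation test on CPM after TMM scaling (two-sided) gave p = 0.2 (adjusted p = 0.4 over 4 members), where 3 against 3 cannot go below 0.1. Without the filter, its log2 fold change was 1.90 (unadjusted p = 0.0128, adjusted p = 0.0684, edgeR), which did not pass. The part of control replicate 3 and its stem cell miRNAs in the values of miR-1248 and miR-1291 was not tested.

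As a group, the 6 snoRNA-derived members made up 33.2 ± 1.06 CPM of the control totals (SD, n = 3) against 27.3 ± 1.51 CPM of the RARαS77A totals (SD, n = 3). The groups did not overlap, and a two-sided exact permutation test gave p = 0.1, the smallest it can give (adjusted p = 0.2 over 3 classes). On this scaling the groups did not overlap in 62.3% of all tested miRNAs. Most counts of the snoRNA-derived members are miR-664a-3p. With the 5 most abundant miRNAs of the table left out of the totals, the sum was 109 ± 9.66 and 113 ± 6.36 CPM (SD, n = 3 each), the groups overlapped and the direction turned. Those 5 miRNAs took between 68.4% and 71.5% of the counts in control and between 74.2% and 77.1% in RARαS77A libraries.

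miR-1246, which matches U2 snRNA and is often reported from vesicles released by cancer cells, had 21, 29 and 48 counts in control and 16, 22 and 18 in RARαS77A libraries. Control replicate 3 was again the highest. After TMM scaling it had 2.68 ± 1.48 CPM in control and 2.27 ± 0.307 in RARαS77A cells (n = 3 each, SD). The groups overlapped, and the fitted log2 value was -0.22 (standard error 0.40, 95% interval -1.15 to 0.72, adjusted p = 0.679, edgeR). Without control replicate 3 the sign turned to 0.25 (adjusted p = 0.554, edgeR). The spread in control was 55.4% of the mean, where counting error gives 17.5%, and in RARαS77A cells it was 13.5%, where counting error gives 23.1%. The summed miRNAs of other cell types were also highest in control replicate 3, and their part in the value was not tested.

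**Figure D1:**
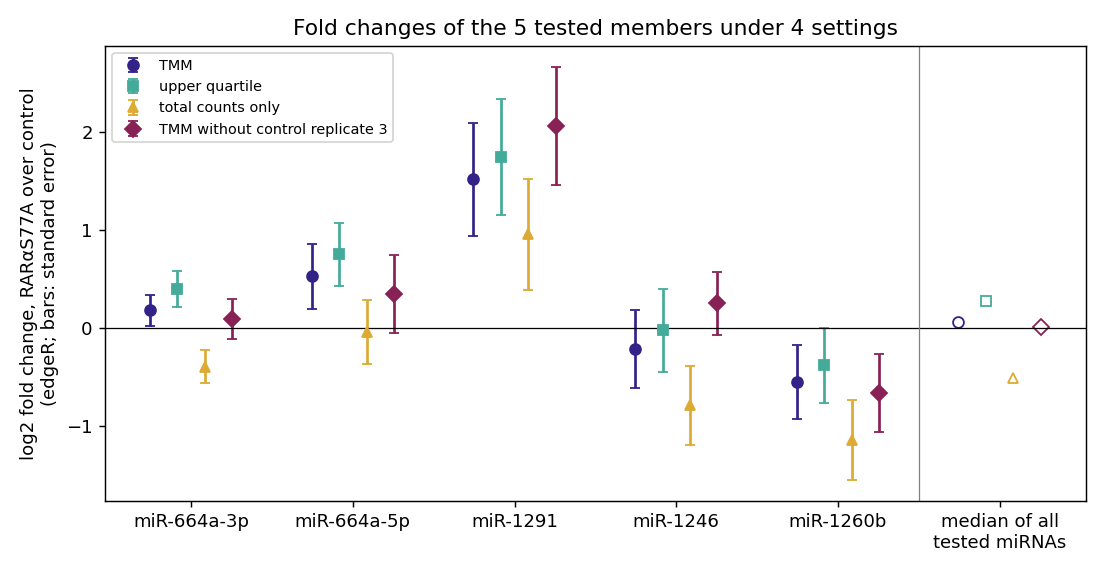
log2 fold change of RARαS77A over control for the 5 tested members (points; bars, standard error; edgeR) under TMM, upper quartile and total-count scaling and without control replicate 3, with the median of all tested miRNAs at the right (open symbols). miR-1291 lies above 0 in all 4 settings and miR-1260b below 0, and miR-664a-3p, miR-664a-5p and miR-1246 change sign.

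Of the tRNA-like pair, miR-1260b carried nearly all counts. hsa-miR-1260b had 116, 257 and 131 counts in control and 42, 64 and 112 in RARαS77A libraries, so that every RARαS77A library had fewer counts than every control. In CPM after TMM scaling, the values were 9.30, 17.5 and 11.97 in control and 5.34, 7.62 and 13.5 in RARαS77A libraries, and RARαS77A replicate 3 lay above control replicates 1 and 3. The log2 fold change was -0.55 (standard error 0.38, 95% interval -1.44 to 0.34, adjusted p = 0.268, edgeR). With total counts as the only scaling it was -1.14 and passed (adjusted p = 0.0491, edgeR), where 42.1% of all tested miRNAs were called lower. It also passed without the filter on low counts (-0.72, adjusted p = 0.0238, edgeR), where 10.2% of 1582 were lower, and with limma on log2 of TPM plus 1 (-1.07, adjusted p = 0.0333) and plus 10 (-0.58, adjusted p = 0.0345), where 43.7% and 43.1% were lower. TPM here is scaled to total counts. Relative to the median of all tested miRNAs, the value was -0.61 with TMM and -0.63 with total counts. Leaving out RARαS77A replicate 3 gave -0.99 (adjusted p = 0.0505, edgeR), and leaving out control replicate 2 gave -0.24 (adjusted p = 0.614, edgeR). The replicates of miR-1260b differed by far more than counting, with a spread of 32.3% of the mean in control and 47.6% in RARαS77A cells, where counting error gives 7.72% and 11.7%.

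Per 100 counts of miR-664a-3p, miR-1260b gave 35.6, 72.8 and 51.4 counts in control and 18.7, 26.0 and 53.3 in RARαS77A libraries. The groups overlapped through RARαS77A replicate 3 (exact permutation test, two-sided, p = 0.3, adjusted p = 0.5 over 5 ratios). miR-1246 gave 6.44, 8.22 and 18.8 counts in control and 7.11, 8.94 and 8.57 in RARαS77A libraries on the same measure, also with overlap (p = 0.9, same exact test). miR-1260a, with the same seed as miR-1260b, had 0, 0 and 2 counts in control and 1, 0 and 3 in RARαS77A libraries (exact permutation test on CPM after TMM scaling, two-sided, p = 0.7, adjusted p = 0.933 over 4 members). The limit set by 3 counts was 0.278 and 0.265 CPM of the library total in control replicates 1 and 2. The sources used here do not say how reads fitting both names were assigned, so the split between miR-1260a and miR-1260b is uncertain. No member with a mean count of at least 10 belonged to a pair of miRNAs with near-identical counts. miR-664b-3p, miR-664b-5p, miR-1248 and miR-1260a fell below this mean and were not searched.

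**Figure D2:**
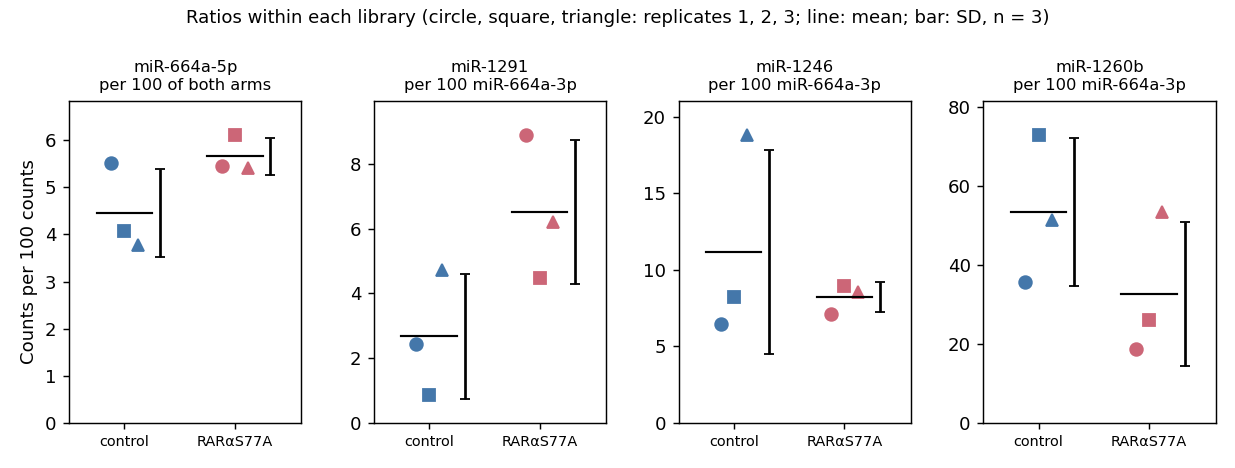
Counts within each library that need no scaling between libraries: miR-664a-5p per 100 counts of both arms, and miR-1291, miR-1246 and miR-1260b per 100 counts of miR-664a-3p (symbols, replicates; line, mean; bar, SD, n = 3). In each panel the control and RARαS77A libraries overlap.

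Other miRNAs with the same kind of origin were compared by counts. Apart from the members, 7 miRNAs of the table overlap a small non-coding RNA gene on the same strand or were listed for ribosomal, mitochondrial or tRNA-like sequence. Of these, 4 were tested, 1 was called higher and 0 lower, and 1 had an unadjusted p under 0.05, against 23.3%, 21.1% and 52.8% of all 506 tested miRNAs. After TMM scaling, miR-1843, in the small Cajal body RNA gene SCARNA3, rose, from 4.42 ± 0.839 CPM in control to 8.61 ± 3.06 in RARαS77A cells (n = 3 each, SD). Its fitted log2 value was 0.96 (adjusted p = 0.0304, edgeR). On the same scaling miR-4454, the most abundant, had 73.4 ± 17.8 CPM in control and 53.9 ± 3.69 in RARαS77A cells (SD, n = 3 each). Its fitted log2 value of -0.44 did not pass (adjusted p = 0.101, edgeR). The median of the 4 tested was 0.39.

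A separate set of miRNAs known to be made without Drosha, the arms of miR-320, miR-484 and miRNAs from short introns (mirtrons), had 15 miRNAs in the table. Of the 8 tested, 2 were higher and 1 lower, against 23.3% and 21.1% of all tested, and the median log2 fold change was 0.01. miR-877-5p, a mirtron, had 1.15 and miR-320a-3p 0.49, and miR-484, which is made from a promoter-proximal transcript, had -1.13. No difference between this set and the members was tested.

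The miRNAs whose pattern was most like that of the leading member of each class were named as a description. The measure was Pearson's r of log2 (CPM + 1) after TMM scaling over the 6 libraries. For miR-664a-3p the miRNAs named were miR-7705 (r = 0.981) and miR-4787-3p (r = 0.924), for miR-1246 miR-147b-5p (r = 0.834) and miR-429 (r = 0.820), and for miR-1260b miR-27a-5p (r = 0.931) and let-7c-5p (r = 0.925). The 6 points share the depth and the scaling of their libraries.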

How the data were processed

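Small RNA libraries (NEBNext Multiplex Small RNA kit, Illumina sequencing) were made from total RNA of 3 control and 3 RARαS77A samples. The authors deposited, per miRNA and library, whole-number read counts, not normalized. The authors also deposited TPM, which equals the count scaled to a column total of 1000000 without a length term (largest difference 4.74e-05). The labels name Bowtie. The sources used here do not give its version, the build, the strand setting or the handling of reads with several matches, and misassigned reads would move counts between similar members.

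Counts were tested with edgeR 4.0.16 in R 4.3.3 (TMM, filterByExpr with a minimum count of 10, glmQLFit and glmQLFTest, no block, Benjamini-Hochberg adjustment over 506 miRNAs, adjusted p under 0.05). The fit was tested on simulated counts. Standard errors were the absolute log2 fold change over the root of F, and 95% intervals use the t distribution of the fit. Ratios within libraries (0.5 added to each count), class sums and untested members were compared with two-sided exact permutation tests in scipy 1.17.1. Alternatives used DESeq2 1.42.0, limma 3.58.1, other scalings and filters, a replicate block, and each library left out. The ratios to miR-664a-3p were added after seeing the values.

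Named miRNAs are the members, listed small-RNA miRNAs whose mean count reached 50, near-identical partners (counts within 5% in every library), and the 2 most similar miRNAs for the leading member of each class. The called miRNAs of the Drosha-independent list and the seed-sharing miRNAs were named after their values or sequences were seen. The members and lists were chosen with earlier results of these data known. The smallest exact p for 3 against 3 is 0.1. Total counts, between 9019266 and 11338580, set a floor of 3 counts for a count of 0.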

Additional observations from a re-analysis of the deposited data

How the results depend on the processing

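The number of members called higher, 0, became 1 (miR-1291) under upper quartile scaling (adjusted p = 0.0458, edgeR), without a filter (adjusted p = 0.0432, edgeR), with limma-voom (adjusted p = 0.0365) and without control replicate 3, and lay between 0 and 1 with each library left out. The number called lower, 0, became 1 (miR-1260b) under total counts only, without a filter (adjusted p = 0.0238, edgeR, 9 members tested) and with limma on log2 of TPM plus 1 or 10 (adjusted p = 0.0333 and 0.0345), and stayed 0 with each library left out. The cause was not tested. Over all miRNAs, 118 higher and 107 lower became 51 and 213 under total counts, 55 and 221, and 59 and 218 with limma on TPM, 162 lower without a filter, and 62 lower at an adjusted p under 0.01.

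miR-664a-3p turned from 0.18 to -0.39 under total counts, -0.057 with the 5 most abundant miRNAs removed from the totals, -0.0091 without a filter, and -0.38 and -0.29 with limma on TPM plus 1 and 10. miR-664a-5p turned from 0.53 to -0.038, -0.0125 and -0.0036 under total counts and both limma settings. miR-1246 turned without control replicate 3 (between -0.45 and 0.25 with each library left out), as did its log2 ratio to miR-664a-3p (between -0.588 and 0.18). The summed snoRNA-derived share went from -5.86 to 4.33 CPM without the 5 most abundant miRNAs. With each library left out it lay between -6.52 and -5.04, the snRNA-derived share between -2.08 and -0.387, the tRNA-like share between -11.3 and -5.36, and the log2 arm ratios between 0.28 and 0.55 (miR-664a) and between -2.44 and -0.64 (miR-664b). Of 92 alternative fold changes of the 5 tested members, 75 kept sign and call, 8 gained a call and 9 changed sign. The 75 include the values at an adjusted p under 0.01, which come from the main fit and could not differ in sign or call.

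The replicate numbers are not said to mark a shared culture or day, so they were not taken as pairs. Deviations from group means correlated at 0.0386, 0.0996 and 0.0247 between same-numbered libraries. With the replicate block, 0 members were called higher and 0 lower, 1 of 5 had an unadjusted p under 0.05 (49.6% of all tested), and 107 miRNAs were higher and 94 lower. The 4 members that did not pass the filter had between 0 and 13 counts per library.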
